A study of Mus musculus with 4 samples.

Results

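The complement system was examined in mouse hearts through 9 genes, namely the 3 chains of C1q (C1qa, C1qb and C1qc), the protease C1s (C1s1), the components C2, C3 and C4b, factor D (Cfd) and C1 inhibitor (Serping1). The genes were chosen by name, and their probes were found through the RefSeq or Ensembl transcript that the array files give for each probe. This gave 11 of the 55681 non-control probes and 9 of the 21658 genes with a probe. C3 and Serping1 had 2 probes each, and all 11 probes were well above background on all 4 arrays.

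Total RNA came from hearts of male C57BL/6J mice after transverse aortic constriction (TAC), a banding of the aortic arch that loads the left ventricle with pressure, or after a sham operation. There were 4 single-color arrays, 1 for each of sham at 2 weeks, TAC at 2 weeks, sham at 8 weeks and TAC at 8 weeks. The labels give an age of 10 weeks for both groups at 2 weeks and of 16 weeks for both groups at 8 weeks, whereas the methods give an older age at surgery. Each array carried RNA mixed from 4 to 6 mice, so the spread between mice was not measured, no test was made, and each fold below is the ratio of 2 pools.

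Complement is a cascade of plasma and tissue proteins that marks microbes, immune complexes and damaged cells. C1q binds the target and the attached proteases C1r and C1s cut C4 and C2, whose fragments form the convertase that cleaves C3, while factor D cuts factor B to build the convertase of the alternative pathway. Liver makes most of the plasma proteins, macrophages are a main source of C1q, fibroblasts make several components locally, and factor D, also named adipsin, is abundant in fat.

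In the mouse genome C1qb, C1qc and C1qa lie next to each other on chromosome 4, with 0 protein-coding genes between them. The promoters of C1qb and C1qc are shown because these neighbors changed by similar amounts, and that of C3 because it changed the opposite way. Each window of 300 bases, taken from RefSeq on GRCm38.p6, runs 5′ to 3′ on the strand of the gene from 250 bases before its annotated start. The windows are chr4:136886151-136886450 for C1qb, chr4:136892865-136893164 for C1qc and chr17:57228087-57228386 for C3, all on the minus strand. Capitals mark GAGGAA, a core bound by the myeloid factor PU.1, on either strand (TTCCTC when read from the other one), and TATAAA, the letters of the TATA box motif.
C1qb: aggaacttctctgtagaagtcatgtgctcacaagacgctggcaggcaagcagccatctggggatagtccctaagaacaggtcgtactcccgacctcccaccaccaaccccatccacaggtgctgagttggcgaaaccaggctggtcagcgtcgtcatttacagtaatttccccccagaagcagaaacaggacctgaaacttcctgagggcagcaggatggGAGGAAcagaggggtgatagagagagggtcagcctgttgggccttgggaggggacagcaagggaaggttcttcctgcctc
C1qc: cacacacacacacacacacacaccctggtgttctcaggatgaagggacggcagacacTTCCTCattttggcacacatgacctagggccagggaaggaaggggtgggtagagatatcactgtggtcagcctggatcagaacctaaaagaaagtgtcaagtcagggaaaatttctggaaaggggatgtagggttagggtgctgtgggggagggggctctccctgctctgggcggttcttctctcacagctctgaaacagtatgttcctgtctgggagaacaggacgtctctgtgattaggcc
C3: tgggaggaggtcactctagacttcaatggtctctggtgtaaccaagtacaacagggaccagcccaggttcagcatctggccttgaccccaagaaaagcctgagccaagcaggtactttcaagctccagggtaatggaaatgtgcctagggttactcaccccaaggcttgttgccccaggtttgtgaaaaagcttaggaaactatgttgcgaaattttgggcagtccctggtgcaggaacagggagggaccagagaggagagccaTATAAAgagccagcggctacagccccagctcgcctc

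GAGGAA stood 30 bases before the annotated start of C1qb and, on the opposite strand, 193 bases before that of C1qc, and 28.3% of the 32851 promoter windows of this length hold it. TATAAA stood 15 bases after the annotated start of C3, and 13.6% of the windows hold it. Whether it serves as a TATA box at that place was not tested. Searched on both strands as well were TTCNNNGAA, present in 8.3% of the windows, the interferon-stimulated response element (GAAA, any 2 bases and GAAA) in 3.44%, CCAAT in 37.4% and the kappa B motif in 8.46%, of which 1 match was found, a kappa B match 41 bases before the start of C1qc. The interferon element and TTCNNNGAA can share bases. A match is a description of letters and not of binding. The RefSeq promoter table gave windows for C1s1 and Cfd, in which none of the 6 motifs matched. It gave no window for C1qa, C2, C4b and Serping1, so their promoters were not searched.

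All values below are relative signals. A relative signal is the processed signal of a probe divided by the 75th percentile of its array, and probes cannot be compared with each other on this scale. The error of a log2 ratio is the spot error, the spread expected from repeated spots of like signal on an array. For the probes of C1qc and C3 with 10 spots it is the error of the mean of their own spots, and averaging makes it smaller. In neither case does it hold anything of the spread between mice.

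Over the 9 genes, 7 had higher relative signals on both TAC arrays than on both sham arrays. Of the 14250 genes measured on all 4 arrays, 23.8% did. The 7 were C1qa, C1qb, C1qc, C1s1, C2, C4b and Serping1. In Serping1 the gap was very small, and its second probe did not show it. The order across times was not examined under other scalings. C3 was the 1 gene lower on both TAC arrays, which 25.7% of all genes were. Cfd overlapped between sham and TAC. In whole hearts more cells of a type and more RNA per cell cannot be told apart. The median log2 ratio of TAC over sham was 0.41 at 2 weeks and 0.42 at 8 weeks, beside -0.01 and -0.01 over all genes measured on both arrays of a pair. Between the sham arrays the median of the 9 genes was 0.13 at 8 over 2 weeks, and 0.02 over all genes.

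**Figure D1:**
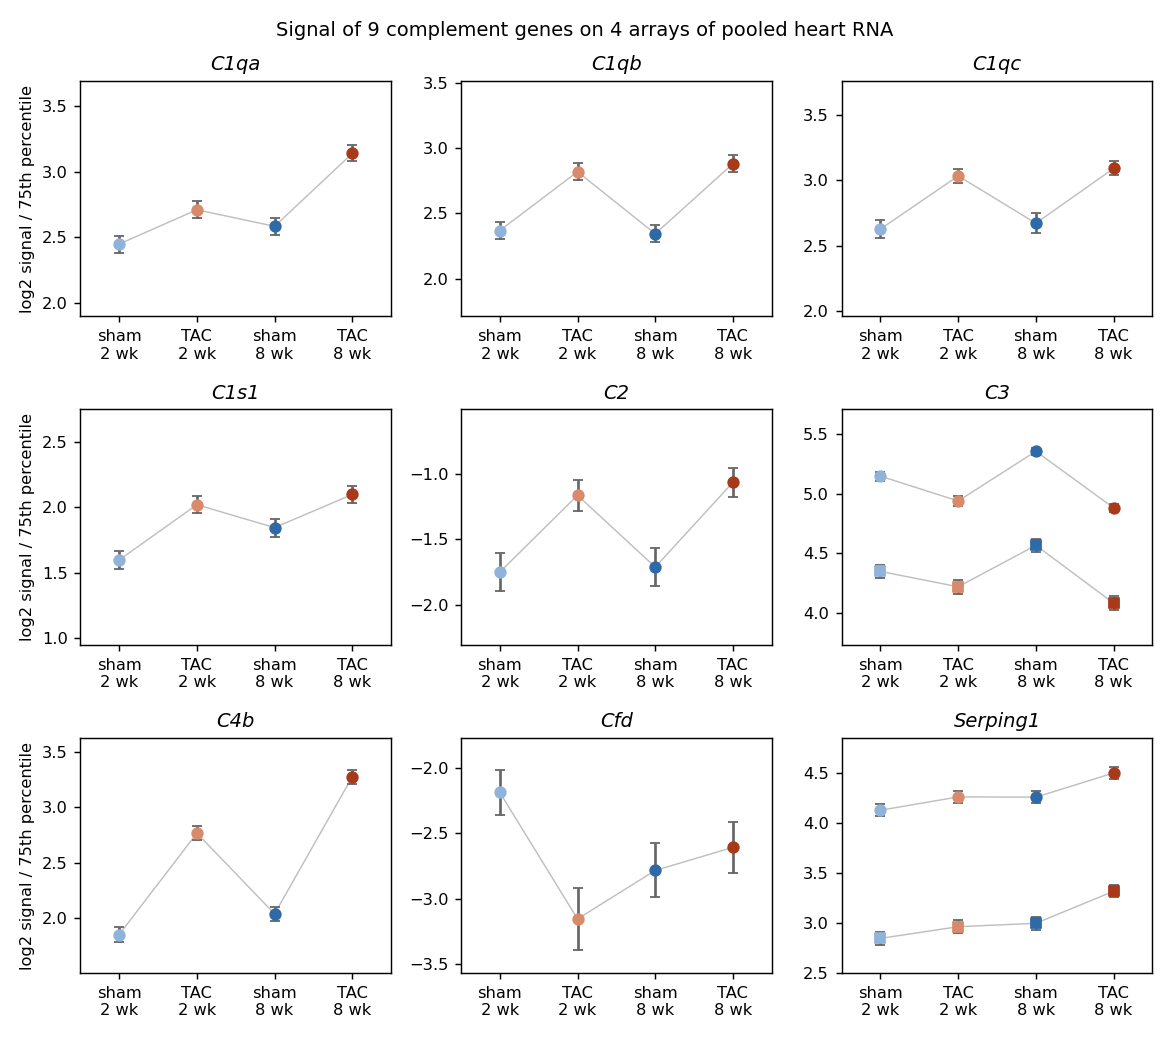
Relative signal (log2, over the 75th percentile of the array) of each gene on the 4 arrays, with the time after surgery on the horizontal axis labels. Circles are the probe used, squares the second probe of C3 and Serping1, bars the SD of single spots, and lines join the arrays for the eye. The vertical span differs between panels. By the probe used, both TAC arrays lie above both sham arrays in 7 panels, in Serping1 by a very small gap that its second probe does not show. They lie below in C3, and Cfd is mixed.

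C1q is the recognition molecule of the classical pathway and is built from A, B and C chains in equal number. C1qa had a relative signal of 5.45 in sham and 6.54 in TAC at 2 weeks, and of 5.99 in sham and 8.82 in TAC at 8 weeks. Both TAC arrays lay above both sham arrays, and the TAC array at 8 weeks stood highest. C1qa was 1.20-fold higher at 2 weeks (log2 ratio 0.26 ± 0.09, spot error) and 1.47-fold higher at 8 weeks (0.56 ± 0.09).

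C1qb measured 5.17 in sham and 7.06 in TAC at 2 weeks, and 5.08 in sham and 7.36 in TAC at 8 weeks. The sham arrays were close to each other, at a log2 ratio of -0.03, and the TAC arrays stood apart from them at both times. The log2 ratio of TAC over sham was 0.45 ± 0.09 at 2 weeks and 0.54 ± 0.09 at 8 weeks, the latter a 1.45-fold difference.

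C1qc, whose probe is printed in 10 spots on each array, measured 6.18 in sham and 8.19 in TAC at 2 weeks, and 6.37 in sham and 8.52 in TAC at 8 weeks. Its log2 ratio was 0.41 ± 0.03 at 2 weeks and 0.42 ± 0.03 at 8 weeks, the 1.34-fold difference at 8 weeks being nearly that at 2 weeks. The 3 chains therefore ranged from 0.26 to 0.45 at 2 weeks and from 0.42 to 0.56 at 8 weeks, with C1qa the lowest at 2 weeks and the highest at 8 weeks. At 8 weeks C1qa and C1qb differed by less than their spot errors. None of the 3 passed 1.5-fold at either time. Of all genes, 16.1% had a higher ratio than C1qa at 2 weeks and 5.93% at 8 weeks.

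Of the nearest neighbors of the C1q genes on chromosome 4, only Ephb2 and Zbtb40 were measured on all 4 arrays, and they did not share these values. Epha8, which lies directly beside C1qa, Wnt4 and Tex46 were not measured on all 4 arrays, and Lactbl1 gave no value. The log2 ratio of Ephb2 was 0.02 at 2 weeks and -0.21 at 8 weeks, and that of Zbtb40 was -0.18 and -0.22.

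C1s1 encodes the protease of the C1 complex that cuts C4 and C2. Its relative signal was 3.03 in sham and 4.06 in TAC at 2 weeks, and 3.59 in sham and 4.28 in TAC at 8 weeks. Both TAC arrays were above both sham arrays, but the sham arrays differed by a log2 ratio of 0.25, as much as sham and TAC did at 8 weeks. The ratio of TAC over sham was 0.42 ± 0.10 at 2 weeks (1.34-fold) and 0.25 ± 0.10 at 8 weeks (1.19-fold).

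The partner of C1s1 in the C1 complex, the protease C1r, is encoded by C1ra, its neighbor on chromosome 6, which together with the other neighbors was named after its values were seen. The log2 ratio of C1ra was 0.32 ± 0.10 at 2 weeks and 0.36 ± 0.10 at 8 weeks. C1s2, a close copy of C1s1, had 0.38 and 0.26, and C1rb, a copy of C1ra, -0.16 and 0.24. The files hold no probe sequences, so whether the probes of the copies read one another's RNA was not tested.

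C4b encodes complement C4, which C1s cuts. Its relative signal was 3.61 in sham and 6.80 in TAC at 2 weeks, and 4.11 in sham and 9.66 in TAC at 8 weeks. The TAC arrays lay well apart from both sham arrays, and the TAC array at 8 weeks was the highest. C4b was 1.88-fold higher at 2 weeks (log2 ratio 0.91 ± 0.09) and 2.35-fold higher at 8 weeks (1.24 ± 0.09), the largest ratio of the 9 genes at each time under the processing used here. Only 1.2% of all genes had a higher ratio at 2 weeks and 1.02% at 8 weeks. The sham arrays differed by 0.19 and the TAC arrays, at 8 over 2 weeks, by 0.51. C4a, a near-identical copy, had no probe matched here, and whether the probe of C4b also reads its RNA was not tested.

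C2 encodes the protease of the classical C3 convertase and lies beside Cfb, the gene of its alternative pathway counterpart factor B, on chromosome 17. C2 was dim, at 0.297 in sham and 0.446 in TAC at 2 weeks, and 0.305 in sham and 0.478 in TAC at 8 weeks. The sham arrays were nearly equal and the TAC arrays were both higher. The log2 ratio was 0.59 ± 0.19 at 2 weeks, a difference just past 1.5-fold, and 0.65 ± 0.18 at 8 weeks (1.57-fold). With normexp background correction, which pulls dim signals together, these became 0.29 and 0.33.

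C3 is the central component on which all pathways meet. The probe with 10 spots measured 35.4 in sham and 30.7 in TAC at 2 weeks, and 40.9 in sham and 29.5 in TAC at 8 weeks. Both TAC arrays were below both sham arrays. The log2 ratio was -0.21 ± 0.02 at 2 weeks and -0.47 ± 0.01 at 8 weeks, so that C3 was 1.39-fold lower at 8 weeks. The second probe gave 20.4 and 18.6 for sham and TAC at 2 weeks, and 23.7 and 16.9 at 8 weeks, with log2 ratios of -0.13 and -0.48. The sham arrays themselves differed by 0.21, as much as sham and TAC at 2 weeks. Of all genes, 16.7% had a lower ratio than C3 at 2 weeks and 6.44% at 8 weeks.

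Cfd encodes factor D, the serine protease that activates factor B. Its probe was dim, at 0.220 in sham and 0.112 in TAC at 2 weeks, and 0.145 in sham and 0.164 in TAC at 8 weeks. The sham array at 2 weeks stood above the other 3 arrays, and the sham and TAC arrays at 8 weeks lay within their spot error. The log2 ratio of TAC over sham was -0.97 ± 0.29 at 2 weeks and 0.18 ± 0.28 at 8 weeks, and that of the sham arrays, at 8 over 2 weeks, was -0.60. Against the mean of both sham arrays, an alternative chosen after seeing the data, the ratio at 2 weeks was -0.67, and with normexp it was -0.29. The direction at 8 weeks turned under both of these settings. Of 10 white adipocyte markers, 3 were measured on all 4 arrays, and Adipoq, Plin1, Cidec and Lep were not well above background on any. The median log2 ratio of the 3 was -0.33 at 2 weeks and -0.68 at 8 weeks. Retn had -0.42 ± 0.30 and -0.68 ± 0.35, Adrb3 -0.33 ± 0.35 and -1.13 ± 0.35, and Fabp4, which other cells also express, 0.23 and -0.01. Retn and Adrb3 were dim, and the second probe of each was not well above background on any array. The summed relative signal of the list was 207 and 149 in sham and 242 and 148 in TAC, of which Fabp4 made up 206 and 148 in sham and 241 and 147 in TAC. The part of fat cells in the values of Cfd was not tested.

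Serping1 encodes C1 inhibitor, the serpin that inactivates C1r and C1s. Its relative signal was 17.5 in sham and 19.2 in TAC at 2 weeks, and 19.2 in sham and 22.7 in TAC at 8 weeks. The TAC array at 2 weeks and the sham array at 8 weeks were almost equal, so the order of the groups rests on a small gap. The log2 ratio was 0.13 ± 0.08 at 2 weeks (1.10-fold) and 0.24 ± 0.08 at 8 weeks (1.18-fold), while the sham arrays differed by 0.13. The second probe gave 7.21, 7.82, 8.00 and 9.99 in the order sham and TAC at 2 weeks, then sham and TAC at 8 weeks, with ratios of 0.12 and 0.32, and its TAC array at 2 weeks lay below the sham array at 8 weeks.

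**Figure D2:**
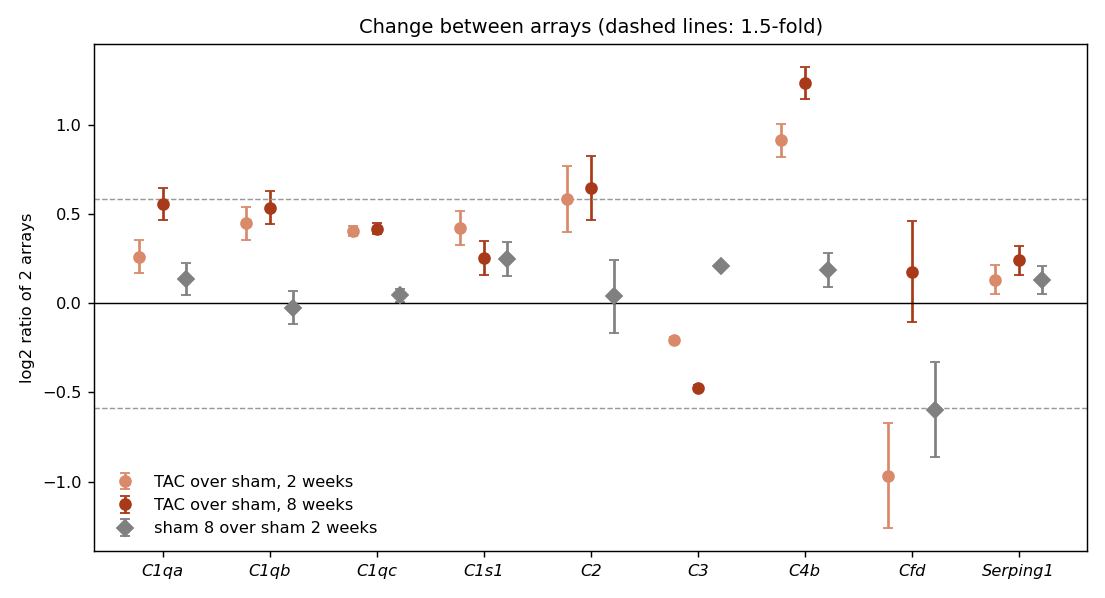
Log2 ratio of TAC over sham at 2 and 8 weeks (circles) and of the sham arrays at 8 over 2 weeks (diamonds) for each gene, with bars for the spot error and dashed lines at 1.5-fold. C4b lies highest at both times, C2 passes 1.5-fold at both, and Cfd at 2 weeks has the lowest ratio at -0.97.

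Of the 9 genes, 2 were over 1.5-fold higher at 2 weeks (C2 and C4b), where 4.17% of 14422 genes measured on both arrays were, and 1 was over 1.5-fold lower (Cfd), where 2.55% were. At 8 weeks 2 were over 1.5-fold higher (C2 and C4b), against 5.36% of 14581 genes, and 0 were over 1.5-fold lower, against 3.98%. Over 2-fold higher were 0 at 2 weeks and 1 at 8 weeks (C4b), where 0.901% and 1.81% of all genes were, and over 2-fold lower were 0 and 0, against 0.548% and 0.878%. Between the sham arrays 1 of the 9 genes (Cfd) differed by over 1.5-fold, as did 2.82% of all genes in either direction. With so few genes these counts rest on single probes.

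**Figure D3:**
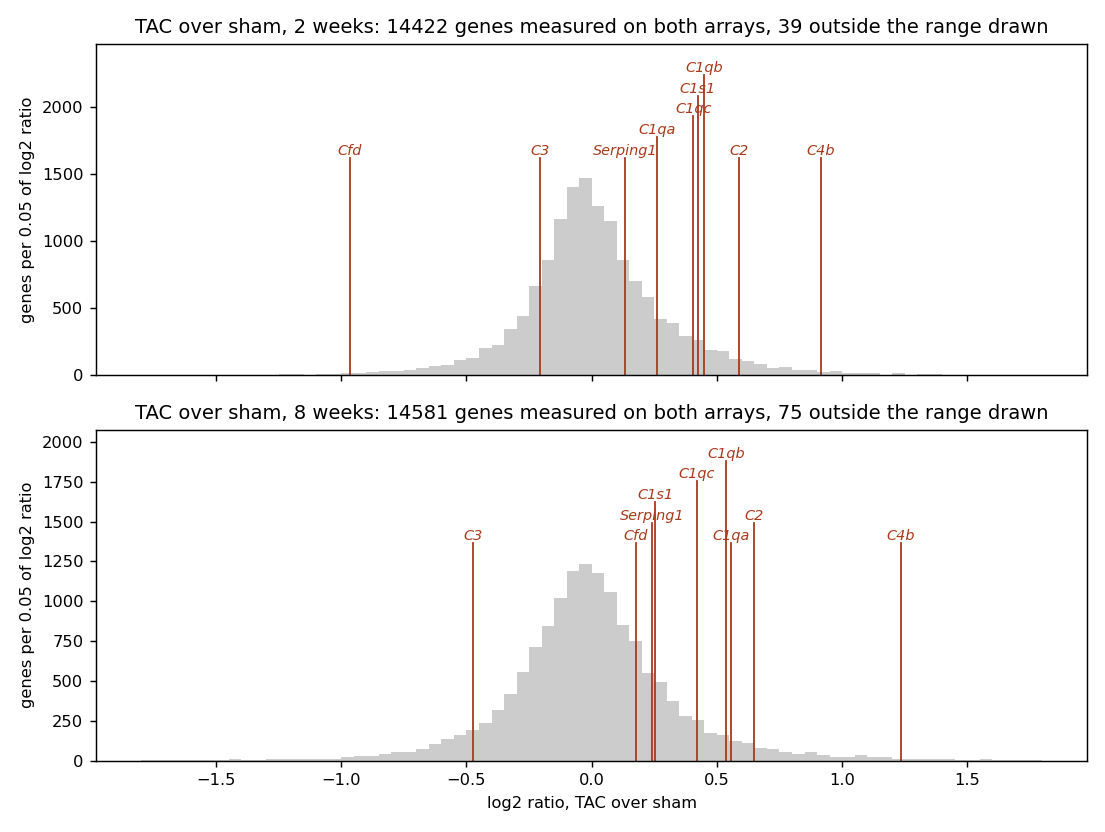
Number of genes in each step of 0.05 of the log2 ratio of TAC over sham at 2 weeks (upper panel) and 8 weeks (lower panel), over all genes measured on both arrays. Vertical lines mark the 9 complement genes. Most of the 9 lie to the right of the middle of the distribution, C3 lies to the left, and Cfd moves from the far left at 2 weeks to the right at 8 weeks.

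A wider list of 47 further complement genes was described in the same way. A probe was found for 46, and 28 were well above background on all 4 arrays. The median log2 ratio was 0.09 over these 28 at 2 weeks, and 0.11 at 8 weeks over the 29 measured on both arrays of that time. At 2 weeks 3 of the 28 were over 1.5-fold higher and 1 lower, beside 4.17% and 2.55% of all genes. At 8 weeks 5 of the 29 measured on both arrays were higher and 2 lower, beside 5.36% and 3.98%. A single gene lower of 28 is near the share over all genes. The mannose-binding lectins Mbl1 and Mbl2, C5 (Hc), C8a, C8b and C9, which liver makes, were not well above background on any array.

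Among proteases and components, Cfb, the gene of factor B, had the largest ratio. Like C2 and Cfd it was dim, at 0.174 in sham and 0.376 in TAC at 2 weeks, and 0.156 in sham and 0.455 in TAC at 8 weeks. Both TAC arrays were at over 2-fold the sham array of their time, with log2 ratios of 1.11 ± 0.23 and 1.55 ± 0.23. The ratio of Cfb with normexp was not examined. Masp2, a protease of the lectin pathway, had -0.81 ± 0.35 at 2 weeks and -0.52 at 8 weeks, and its second probe above background -0.58 and 0.00. C8g, a subunit of the membrane attack complex, had -0.47 at 2 weeks and -0.65 at 8 weeks by its brighter probe, but 0.02 and -0.21 by the other.

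Among recognition molecules and receptors, Colec12, a scavenger receptor of the collectin family, stood at 0.71 ± 0.25 (2 weeks) and 0.72 ± 0.22 (8 weeks) on the log2 ratio scale. Vsig4, a complement receptor of tissue macrophages that binds C3b, had 0.80 ± 0.18 and 0.72 ± 0.16. Itgax, a chain of complement receptor 4, had 0.22 at 2 weeks and 0.60 ± 0.27 at 8 weeks. C3ar1, the receptor for C3a, was not well above background in sham at 2 weeks. Against that uncertain signal its TAC array was 1.88-fold higher (log2 ratio 0.91 ± 0.37), while at 8 weeks its log2 ratio was -0.07. For Itgam, the chain of complement receptor 3, the 3 probes had log2 ratios of -0.02, -0.38 and 0.16 at 2 weeks, which differ in sign, and of -0.04, -0.49 and -0.16 at 8 weeks.

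Among regulators, Cd55b, a copy of decay-accelerating factor, had a log2 ratio of 0.25 at 2 weeks and 0.63 ± 0.24 at 8 weeks. It was dim, at 0.228 in sham and 0.272 in TAC at 2 weeks, and 0.168 in sham and 0.261 in TAC at 8 weeks. The sham arrays, at 8 over 2 weeks, differed by -0.44. The second probe of Cd55b was not well above background on any array. Cd59b, which blocks the membrane attack complex, had -0.19 at 2 weeks and -1.14 ± 0.31 at 8 weeks. Its relative signal was 0.138 and 0.121 in sham and TAC at 2 weeks, and 0.224 and 0.102 at 8 weeks, so the sham array at 8 weeks stood above the other 3. Cfi and Cpn2, which encode factor I and a carboxypeptidase N subunit, were well above background on the sham array at 2 weeks alone. They were at least 4.59-fold and at least 4.84-fold lower in TAC at 2 weeks. These bounds are taken against the dimmest signal well above background on that TAC array, and each rests on 1 spot per array. The second probe of Cpn2 was not well above background on any array, so the value of Cpn2 rests on 1 of 2 probes that disagree.

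**Figure D4:**
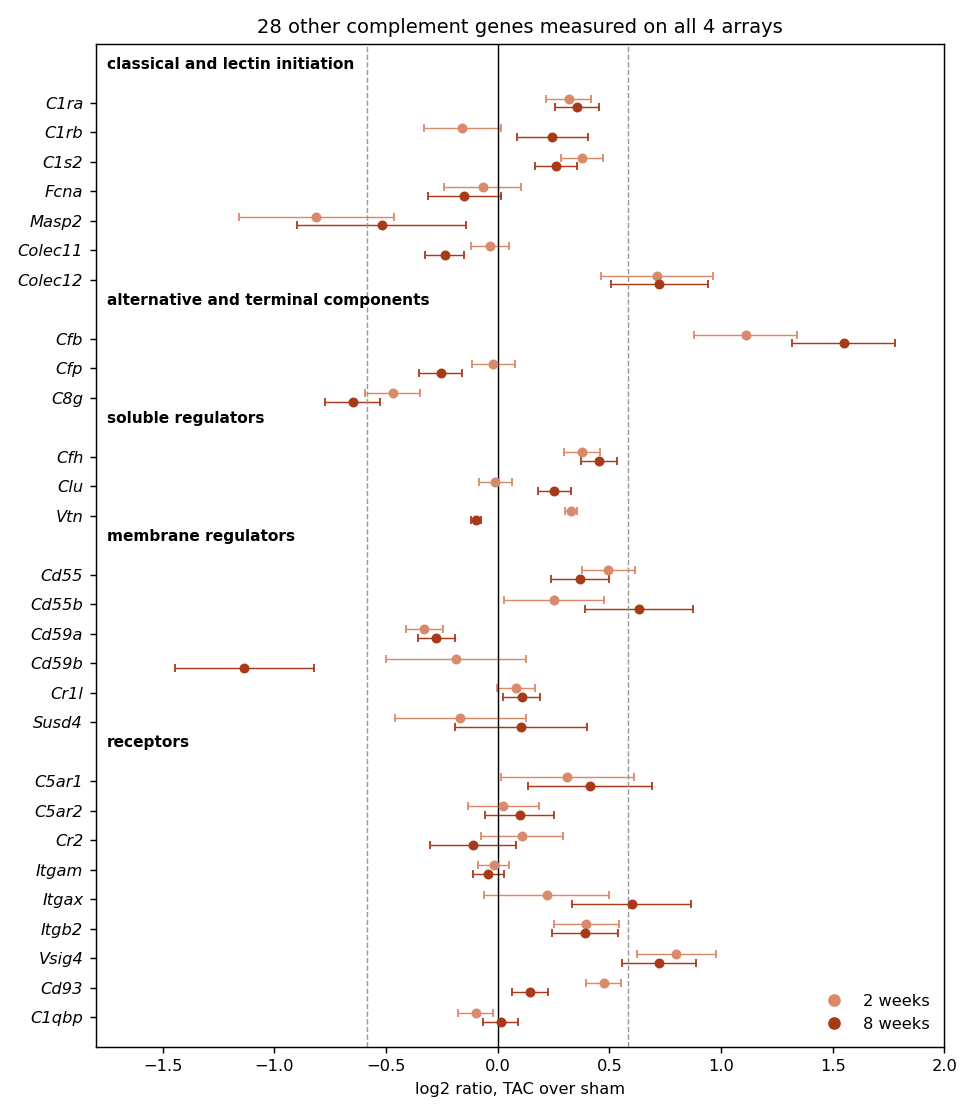
Log2 ratio of TAC over sham at 2 weeks (light) and 8 weeks (dark) of the 28 further complement genes measured on all 4 arrays, grouped by role, with bars for the spot error and dashed lines at 1.5-fold. Cfb has the highest ratio at both times, and Cd59b at 8 weeks has the lowest.

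The tissue label and the other cell types that the samples could hold were checked with marker lists. All 10 cardiomyocyte markers were measured on all 4 arrays, and all 6 hypertrophy genes were over 2-fold higher in TAC at both times, with medians of 1.64 and 2.32. By the probe used, all 15 macrophage markers had a log2 ratio above 0 at both times, with medians of 0.53 and 0.42. Their summed relative signal was 54.7 and 56.1 in sham and 72.0 and 75.4 in TAC. Of these, 7 were over 1.5-fold higher at 2 weeks and 4 at 8 weeks. The 15 ratios ran from 0.30 to 1.08 at 2 weeks and from 0.09 to 0.91 at 8 weeks. The lowest at 8 weeks, Cd163, lay within its spot error (0.09 ± 0.41). Adgre1 had 0.44 and 0.40, Cd68 0.31 and 0.40, and Csf1r 0.30 and 0.31. The other probes of Csf1r had 0.37 and 0.04 at 2 weeks, and 0.25 and -0.01 at 8 weeks.

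Of 11 fibroblast markers, 7 were over 1.5-fold higher at each time, with medians of 0.89 and 0.77. Their summed relative signal was 260 and 286 in sham and 374 and 444 in TAC. The 11 ratios spread widely, from -0.01 to 2.29 at 2 weeks and from -0.55 to 2.92 at 8 weeks. Below 0 were 1 gene at 2 weeks (Dpt, -0.01) and 2 at 8 weeks (Tcf21, -0.55, and Dpt, -0.24). Of 8 neutrophil markers, 4 were measured on all 4 arrays, with medians of 0.68 and 1.18. S100a8 had 1.11 and 2.17 and S100a9 1.21 and 2.00, whereas Ly6g had 0.25 and 0.37 and Camp -0.46 and -0.42, and Ngp was not well above background on any array. Of 8 hepatocyte markers 5 were measured, with medians of -0.21 and 0.00, the latter 0.17 without normalization. Of these 5, 2 had a ratio above 0 and 3 below 0 at each time. The highest was Ttr, which was dim, at 0.59 ± 0.35 and 1.16 ± 0.35. Alb and Apoa1 were not well above background on any array. Cardiomyocyte markers had medians of -0.12 and -0.16, the latter 0.01 without normalization, and endothelial markers 0.23 and -0.06, the latter 0.11 without normalization. The part of any of these cell types in the values of the 9 genes was not tested.

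**Figure D5:**
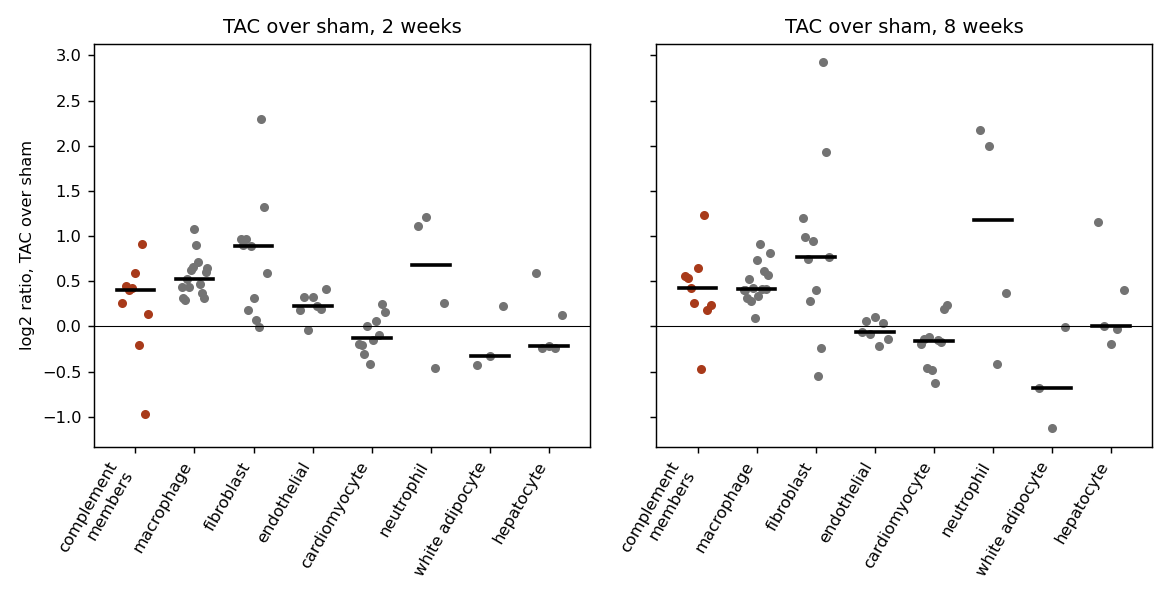
Log2 ratio of TAC over sham at 2 weeks (left) and 8 weeks (right) for the 9 complement genes and for marker genes of 7 cell types, 1 point for each gene measured on both arrays, with bars at the median. The macrophage points all lie above 0, with medians of 0.53 and 0.42 beside 0.41 and 0.42 for the complement genes.

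The genes whose profile over the 4 arrays was most like that of a complement gene were found by the Euclidean distance of log2 values, each centred on its own mean, among 14250 genes. Such likeness over 4 points is a description. Nearest to the mean of the C1q genes were Svopl (distance 0.02), Emp3 (0.02) and Npdc1 (0.02). Nearest to C4b were Mmp23 (0.04), Ccdc136 (0.05) and Mthfd2 (0.08), whose TAC over sham values were 0.88 to 0.89 (log2, 2 weeks) and 1.15 to 1.21 (8 weeks). Nearest to C3 were Camk2a (0.01), AU041133 (0.02) and Dffb (0.04), to Serping1 Cwc27 (0.01), Nup160 (0.02) and Ptpn12 (0.02), and to Cfd Adam21 (0.08), Stfa2 (0.16) and Shc3 (0.18). Rank for rank, the distances of Cfd were the longest of the 5 profiles.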

How the data were processed

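The data are 4 arrays (Agilent SurePrint G3 Mouse GE 8x60K, Cy3), 1 per condition, of RNA mixed from 4 to 6 hearts. The authors' deposited scanner files hold the processed signal, a background-corrected intensity of each spot without normalization between arrays, and other columns with flags for background, saturation and outliers. The file headers name Agilent Feature Extraction 10.7.3.1 and the submitters' processing notes 9.1. The deposited value table holds the same intensity times a constant per array.

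Here spots flagged as outliers were left out (6 of the 9 genes' spots), spots of a probe were averaged as log2, and the 75th percentile of each array, 206.0 to 248.5, was subtracted. Between 54.7% and 58.5% of probes were well above background. A gene was read from its brightest probe. Of all probes, 29358 were named through a RefSeq or Ensembl transcript. Errors come from 399 probes with 10 spots. Counts were tested on simulated data. The 9 genes, the lists and the naming rule (all 9 genes, further complement genes past 1.5-fold, 3 nearest profiles, up to 3 genes per marker list, and others said to be chosen later) were chosen with earlier results of these data known. Alternatives were other scalings, normexp (limma 3.58.1, R 4.3.3, offset 50), the deposited table, mean over probes, no background filter, outliers kept, 2-fold, and the mean of both sham arrays. Python 3.11.15, pandas 2.3.3 and numpy 2.4.6 were used.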

Additional observations from a re-analysis of the deposited data

Results flagged for a closer look

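Cfd differed between the times in the direction of its change, with a log2 ratio of TAC over sham of -0.97 at 2 weeks and 0.18 at 8 weeks, a difference of 1.14. With 1 array per condition the difference was not tested. The signal was dim on all 4 arrays, and the sham array at 2 weeks was the highest of them.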

How the results depend on the processing

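The median log2 ratio of the 9 genes was above 0 under every alternative run, at 0.29 to 0.43 at 2 weeks and 0.33 to 0.59 at 8 weeks. Each gene kept its direction at both times under all 9 alternatives, except Cfd at 8 weeks, which ranged from -0.12 to 0.34 and turned with normexp and with the mean of both sham arrays. Not all of the 9 could change a direction. Dropping the background filter changed no value, since all 11 probes were well above background on all 4 arrays. The mean over probes could move only C3 and Serping1. Other scalings by a constant and the deposited table shift every gene of an array by the same amount. The count of genes over 1.5-fold higher, 2 at each time, was 1 at 2 weeks and 4 at 8 weeks with the array median as scale, 1 and 5 without normalization, 1 and 1 with normexp, and 1 and 3 against the mean of both sham arrays, an alternative chosen after seeing the data. With a 2-fold threshold it was 0 and 1. Without normalization the median of all genes at 8 weeks moved from -0.01 to 0.16, and 9.38% of genes were over 1.5-fold higher and 2.02% lower, against 5.36% and 3.98%. At 2 weeks 4.10% of genes were over 1.5-fold higher without normalization. With normexp the shares higher and lower were 1.30% and 0.91% at 2 weeks, and 3.11% and 1.31% at 8 weeks. With the array median as scale 3.61% of genes were higher at 2 weeks and 7.18% at 8 weeks, where the median of all genes was 0.08. Against the mean of both sham arrays 3.88% and 5.98% of genes were higher. Signal over background limits the values of C2 and Cfd, and those of dim genes of the wider list such as Cfb. The spread between mice is unknown for all 9 genes.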
